A study of Mus musculus with 6 samples.

Results

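CXC chemokine ligands were examined in bulk RNAseq of LYVE-1+ tumor-associated macrophages (TAMs) sorted from mouse mammary tumors. The set comprised 9 of the 21841 genes in the deposited table: Pf4, Ppbp, Cxcl1, Cxcl2, Cxcl9, Cxcl10, Cxcl12, Cxcl14 and Cxcl16. They were taken by name, and Pf4 was singled out with its values in these libraries already known, that is, selected on its counts in this same contrast, so all values of the ligands are given as a description. Calls of ligands by the fits across all genes are counted beside the share of all genes called and are not evidence of a difference. All 6 mice carried the MMTV-PyMT transgene (the FVB/N-Tg(MMTV-PyVT)634Mul/J line, with WT as the stated genotype), in which a mammary tumor virus promoter drives the polyoma middle T antigen in mammary epithelium and tumors arise spontaneously. For 36 h before collection, 3 mice received vehicle and 3 received KCL-HO-1i, a tin mesoporphyrin-based inhibitor of heme oxygenase-1 (HO-1), by intraperitoneal injection at 25 µmol/kg daily, and no age was given. Live CD45+CD206+LYVE-1+ cells positive for the macrophage antigen encoded by Adgre1 were sorted by FACS, with 5000 cells stated, and each library came from a different mouse. The question was whether the ligands, and Pf4 among them, differed between the LYVE-1+ TAMs of treated and vehicle-treated mice.

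CXC chemokines are small secreted proteins that guide leukocytes through receptors of the Cxcr family and are held on heparan sulfate at cell surfaces. Cxcl1, Cxcl2 and Ppbp (platelet basic protein) attract neutrophils through Cxcr2, whereas Cxcl9 and Cxcl10 are induced by interferon and attract T-cells through Cxcr3. Pf4 (platelet factor 4, Cxcl4) is stored in platelet granules with Ppbp, binds heparin strongly, and is also transcribed by resident macrophages of several tissues. Cxcl12 acts through Cxcr4 and Ackr3 and is made mainly by stromal cells, Cxcl16 is made as a membrane protein that binds Cxcr6, and Cxcl14 is a ligand of epithelia and stroma.

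In the libraries of the treated mice, 3 ligands held nearly all ligand counts: Pf4, Cxcl1 and Cxcl2 together made up 93.3% to 97.5% of the counts of the 9 genes. In the vehicle libraries the same 3 genes made up 81.0%, 40.7% and 8.51%. Mean CPM (library-scaled counts, with TMM factors) was 28.7 ± 33.8 with vehicle and 1984 ± 1034 with KCL-HO-1i for Pf4 (SD, n = 3 each). Ppbp, the platelet partner of Pf4 and its nearest ligand gene on the chromosome, had 0 counts in all 6 libraries.

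The libraries were shallow and differed in ways that bear on every value of the ligands. Estimated counts summed to 206728 to 338255 per vehicle library and 207812 to 535224 per treated library, so 3 counts, taken here as the detection floor, corresponded to 10.2 to 16.8 CPM. In vehicle replicates 1, 2 and 3, 15105, 14017 and 17318 genes had counts, against 7584, 15148 and 10781 in KCL-HO-1i replicates 1, 2 and 3. The counts carry no molecular identifiers, and all intervals and floors cover counting error only. The sorting markers were sparse in the vehicle libraries, where Adgre1 had 1 to 3 counts and Ptprc (CD45) 0 to 6, against 26 to 72 and 0 to 94 counts in the treated mice. Mrc1 (CD206) had 0 to 12 counts against 31 to 104, and Lyve1 had 8 to 22 against 8 to 38. Vehicle replicate 1 stood apart from the other vehicle libraries in its general macrophage genes, and KCL-HO-1i replicate 3 in its mitochondrial share of 41.8%. Vehicle mice and treated mice differ in the first part of their animal codes, so treatment and any batch that those codes mark cannot be told apart.

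Pf4, Ppbp, Cxcl1 and Cxcl2 lie in 1 cluster on chromosome 5, all on the plus strand, and the sequences upstream of these genes are shown because the cluster held both the most abundant ligands and the one with no counts. In GENCODE M21 on GRCm38, Pf4 spans 90772435 to 90773383 and Ppbp ends 2371 bases before it. Cxcl1 starts 117857 bases and Cxcl2 130487 bases beyond the end of Pf4. Cxcl9 (92321347 to 92328079) and Cxcl10 (92346638 to 92348889) lie farther along chromosome 5 on the minus strand. Cxcl12 lies on chromosome 6 (117168535 to 117181367, plus strand), Cxcl14 on chromosome 13 (56288643 to 56296551, minus strand) and Cxcl16 on chromosome 11 (70453983 to 70459984, minus strand). Cxcl10 and Cxcl16 overlap Art3 and Zmynd15 on the other strand, and whether reads were counted by strand is not given in the sources used here. The windows come from RefSeq (GRCm38.p6), start 250 bases before the RefSeq gene start and stop before the GENCODE gene start, at chr5:90772185-90772434 for Pf4, chr5:90768268-90768517 for Ppbp, chr5:90890995-90891240 for Cxcl1 and chr5:90903649-90903870 for Cxcl2. Capitals mark TATAAA or GGAATTTCC, and each line runs 5′ to 3′ on the plus strand.
Pf4: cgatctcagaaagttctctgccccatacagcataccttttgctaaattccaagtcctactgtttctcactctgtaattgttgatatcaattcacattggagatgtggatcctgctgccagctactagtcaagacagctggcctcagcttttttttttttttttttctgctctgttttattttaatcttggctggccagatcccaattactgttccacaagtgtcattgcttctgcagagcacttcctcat
Ppbp: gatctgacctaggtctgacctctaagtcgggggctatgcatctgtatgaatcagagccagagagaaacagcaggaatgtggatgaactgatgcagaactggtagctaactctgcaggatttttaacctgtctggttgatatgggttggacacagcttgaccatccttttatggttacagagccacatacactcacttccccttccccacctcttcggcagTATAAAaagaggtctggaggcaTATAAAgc
Cxcl1: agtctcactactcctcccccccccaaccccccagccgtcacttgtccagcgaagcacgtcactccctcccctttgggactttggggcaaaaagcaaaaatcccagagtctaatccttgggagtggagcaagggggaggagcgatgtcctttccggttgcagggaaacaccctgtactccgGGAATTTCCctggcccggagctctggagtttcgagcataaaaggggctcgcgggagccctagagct
Cxcl2: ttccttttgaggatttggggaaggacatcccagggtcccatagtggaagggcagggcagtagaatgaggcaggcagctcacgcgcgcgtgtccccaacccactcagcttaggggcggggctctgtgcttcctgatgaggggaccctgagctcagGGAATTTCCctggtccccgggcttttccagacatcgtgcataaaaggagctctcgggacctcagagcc

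Windows of 300 bases, from 250 before to 50 after the gene start, were held by RefSeq for 8 of the 9 ligands (not for Cxcl16) and were searched on both strands. TATAAA, found in many core promoters, was present in the window of Ppbp, at 30 and 8 bases before the start, and in that of Cxcl9, and 13.6% of all 32851 promoter windows held it. The letters GGAATTTCC, a form of the NF-kB site that was added after the windows were seen, occurred at 70 bases before the start of Cxcl1 and 96 before that of Cxcl2, and on the opposite strand of Cxcl10, while 0.317% of all windows held them. Pf4 and Ppbp held neither GGAATTTCC nor the NF-kB form GGGANTTCC, which was found in Cxcl9 and Cxcl10 and in 1.68% of all windows. AGATAA, which is one form of the site of GATA factors, which act in megakaryocytes, was found in Pf4 after its start, at base 37, and in Cxcl10, and 11.2% of windows held it. GAAANNGAA, a core of interferon-responsive elements, was found in Cxcl9, Cxcl10 and Cxcl14 (8.56% of windows), and TGANNNNGC, a core of the antioxidant response element, in Cxcl10 and Cxcl12 (41.3% of windows). The windows of Cxcl1 and Cxcl2 shared GGAATTTCC, which the window of Pf4, within the same cluster, did not hold. Since these letters were chosen with the windows in view, nothing is read from this. The form GGGANTTCC was in neither Cxcl1 nor Cxcl2. The bases before the start were 41.2% G or C for Pf4 and 47.2% for Ppbp, against 59.2% for Cxcl1 and 60.0% for Cxcl2. A match is a run of letters and not a bound site.

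Counts of Pf4 were 12, 3 and 1 in vehicle replicates 1, 2 and 3, and 181, 710 and 636 in KCL-HO-1i replicates 1, 2 and 3. These were 67.1, 15.5 and 3.41 CPM with vehicle and 834, 2837 and 2283 CPM with KCL-HO-1i. Every treated mouse was above every vehicle-treated mouse, and vehicle replicates 2 and 3 were at or under the floor of 3 counts. The log2 fold change of Pf4, positive where KCL-HO-1i is higher, was 6.13 (SE 1.23). The ratio of pooled CPM, treated over vehicle libraries, was 85.1 (95% exact interval 52.2 to 149, for counting error and not the spread between mice). Without vehicle replicate 1 that ratio was 249 (97.0 to 915), on 4 vehicle counts, and the log2 fold change was 8.0.

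Pf4 shared none of its transcript 31-mers with another gene, so its counts were not open to splitting between near-identical copies. In bulk RNA, fewer cells of a type and less RNA per cell cannot be told apart.

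**Figure D1:**
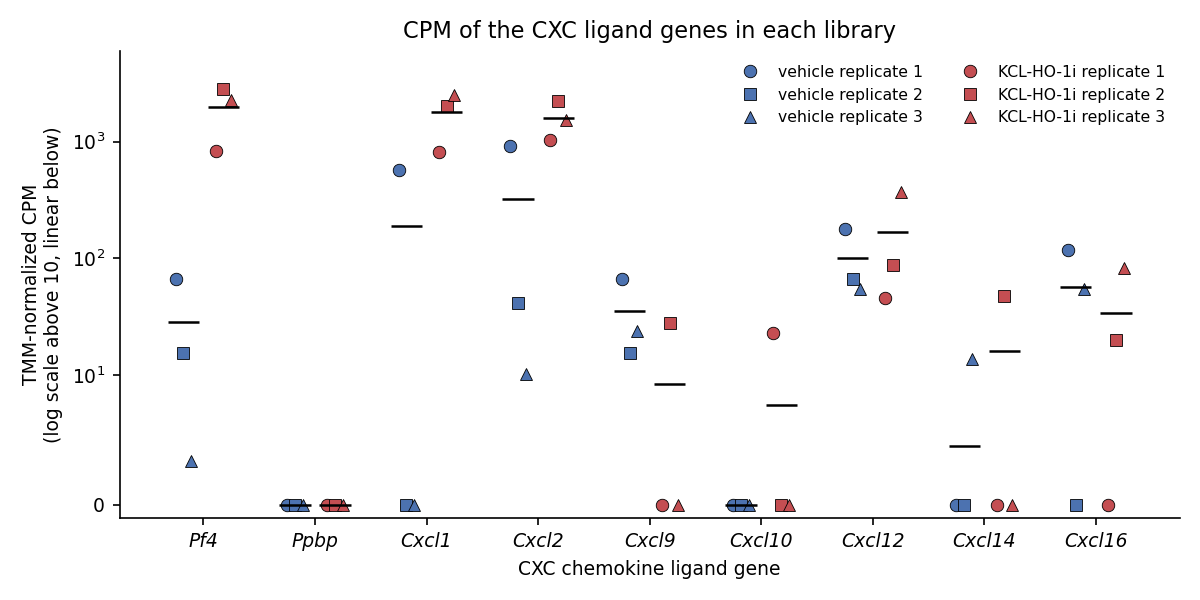
TMM-normalized CPM of the CXC ligand genes (y axis, logarithmic above 10 and linear below) in each of 3 vehicle (blue) and 3 KCL-HO-1i (red) libraries, with symbols for the replicate number and bars for the group mean. Pf4, Cxcl1 and Cxcl2 do not overlap between the groups, vehicle replicate 1 lies close to the KCL-HO-1i libraries for Cxcl1 and Cxcl2 but not for Pf4, and Ppbp is at 0 throughout.

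The neutrophil-attracting ligands Cxcl1 and Cxcl2 were also higher in all treated mice, and how far depended on vehicle replicate 1. For Cxcl1, 102, 0 and 0 counts with vehicle stood against 178, 506 and 693 with KCL-HO-1i, which was 570.1, 0 and 0 CPM against 820.3, 2022 and 2487 CPM. All of its vehicle counts came from replicate 1. The log2 fold change of Cxcl1 was 3.23 (SE 1.74), the mean of the treated libraries was 3.12 times the CPM of vehicle replicate 1, and against the floor of the 2 vehicle libraries at 0 it was at least 138-fold higher. Without vehicle replicate 1 the fitted log2 fold change of Cxcl1 was 11.9, which rests on vehicle libraries at 0 and is no bound, and it then exceeded the 8.0 of Pf4.

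For Cxcl2, 163, 8 and 3 counts with vehicle stood against 223, 562 and 426 with KCL-HO-1i, or 911, 41.4 and 10.2 CPM against 1028, 2245 and 1529 CPM. Vehicle replicate 1 was thus just below the lowest treated library, and the other vehicle libraries were far below it. The log2 fold change of Cxcl2 was 2.32 (SE 1.32), and without vehicle replicate 1 it was 6.24. In Cxcl2, 7.59% of the transcript 31-mers also occur in Cxcl3, a close relative in the cluster, so a part of its counts could have been split with that gene. Cxcl3 itself had 0 counts with vehicle against 0, 11 and 9 with KCL-HO-1i.

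Ppbp, the remaining ligand of the group that signals through Cxcr2, had 0 counts in each library, a level under the floor of 10.2 to 16.8 CPM. Along the cluster, counts with KCL-HO-1i were high at Pf4, at most 11 in a library at Ppbp, Cxcl5, Cxcl3 and Cxcl15, and high again at Cxcl1 and Cxcl2. Cxcl5, which like Cxcl3 attracts neutrophils, had 2 counts in the vehicle libraries and 6 in the treated ones, in 1 library of each group. Cxcl15, a ligand known from lung, had 2, 0 and 13 counts against 4, 11 and 0, with no separation of the groups.

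**Figure D2:**
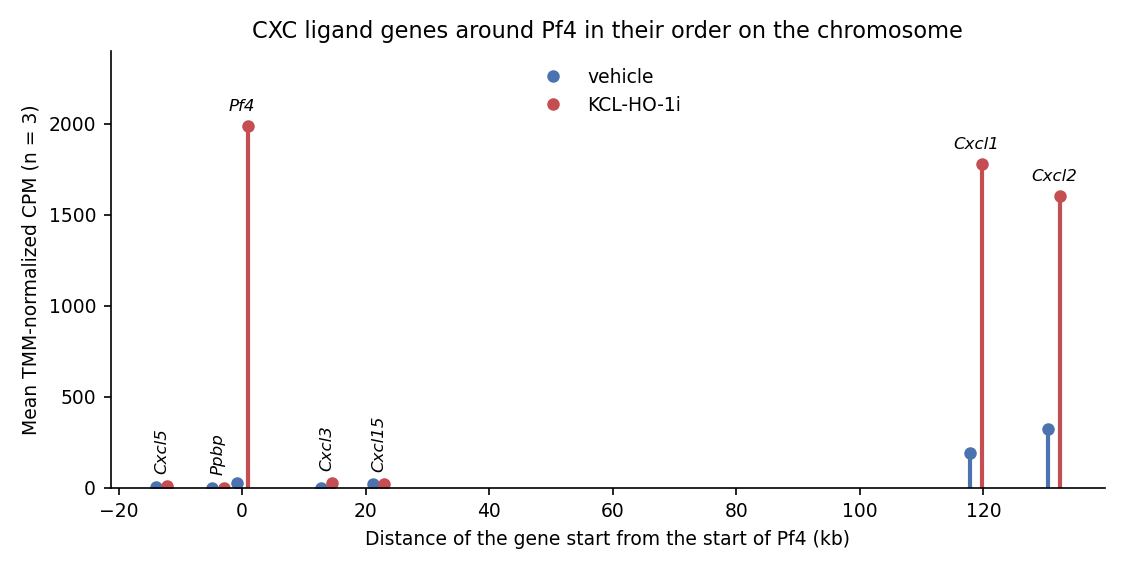
Mean TMM-normalized CPM (y axis, n = 3 per group) of the CXC ligand genes around Pf4 against the distance of each gene start from that of Pf4 (x axis, kb), with vehicle in blue and KCL-HO-1i in red, drawn slightly apart around the true position. Only Pf4, Cxcl1 and Cxcl2 reach a mean above 100 CPM, and Ppbp beside Pf4 is at 0 in both groups.

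The interferon-induced ligands were near the floor. Cxcl9 had 12, 3 and 7 counts in vehicle-treated and 0, 7 and 0 in treated mice, and Cxcl10 had 5 counts in KCL-HO-1i replicate 1 and 0 in the other 5 libraries. The groups overlapped for both genes. The interferon target list, 10 genes such as Ifit2 and Irf1, also overlapped, at 0.0227% to 0.0287% of the counts with vehicle and 0.0146% to 0.0407% with KCL-HO-1i.

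Cxcl12, the ligand of Cxcr4, was counted 32, 13 and 16 times with vehicle against 10, 22 and 104 times with KCL-HO-1i, or 179, 67.2 and 54.6 CPM against 46.1, 87.9 and 373 CPM. The groups overlapped, and the highest value came from KCL-HO-1i replicate 3, the library with the large mitochondrial share. The log2 fold change of Cxcl12 was 0.76 (SE 1.00) and turned to -0.38 without that library. Cxcl16 was counted 21, 0 and 16 times with vehicle against 0, 5 and 23 with KCL-HO-1i, at a log2 fold change of -0.72 (SE 1.69). Its groups overlapped as well, and the sign turned without vehicle replicate 1 (0.62) and without KCL-HO-1i replicate 1 (0.15). Cxcl14 had counts in 2 libraries, 4 in vehicle replicate 3 and 12 in KCL-HO-1i replicate 2.

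The filter on low counts kept 7263 genes, among them 5 of the 9 ligands (Pf4, Cxcl1, Cxcl2, Cxcl12 and Cxcl16), since Ppbp, Cxcl9, Cxcl10 and Cxcl14 had too few counts. Of these 5 ligands, 4 had a positive log2 fold change, beside 32.6% of all genes tested, and their median was 2.32 against -0.52 over all genes. The CPM of 3 ligands, Pf4, Cxcl1 and Cxcl2, was higher with KCL-HO-1i with no overlap between the groups, beside 7.88% of all genes tested (24% in either direction). The ligands were chosen with this contrast in view, and a gene at 0 in most vehicle libraries passed the filter only through the treated ones, so nothing is read from these shares.

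With edgeR's quasi-likelihood test and Benjamini-Hochberg adjustment, 0 of the 5 ligands passed both thresholds, an adjusted p of 0.05 and a log2 fold change past 0.6 either way, beside 0% of all genes. At an unadjusted p of 0.05 there were 586 genes, 8.07% of those tested, and 1 ligand, Pf4. Pf4 was called by DESeq2 without a filter (0.845% of 19518 genes), by DESeq2 on the filtered genes (3.25% of genes) and by edgeR without a filter (0.42% of genes). Pf4, Cxcl1 and Cxcl2 were called by limma voom with sample quality weights (4.12% of genes), and by edgeR when vehicle replicate 1 was left out (0.751% of 9853 genes). With 10 counts required in every library, Cxcl12 alone was tested and was not called (7.07% of 948 genes). The calls of the ligands changed with the tool, the filter and vehicle replicate 1, and also with the scaling to macrophage genes described further on. They were made on the same values that the ligands were selected on, so they describe the fits and test nothing further.

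Levels were compared between genes per kb of the longest coding transcript. With KCL-HO-1i the mean was 3375 ± 1759 CPM per kb for Pf4, 1864 ± 902 for Cxcl1 and 861 ± 329 for Cxcl2 (SD, n = 3), and Cxcl12 followed at 30.0 ± 31.6. Neighbors in this order differed by less than the sum of their SDs down to Cxcl2. Within each of the 3 treated libraries the order by the longest transcripts was Pf4, Cxcl1, Cxcl2. Per kb, Pf4 was 1.65, 2.27 and 1.49 times Cxcl1 and 2.57, 3.99 and 4.72 times Cxcl2 in replicates 1, 2 and 3. With the shorter of the annotated Cxcl2 transcripts these last ratios were 1.53, 2.38 and 2.82. Pf4 stayed first, but in KCL-HO-1i replicate 1 Cxcl2 then stood at 201 counts per kb, above Cxcl1 at 187.

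With vehicle the order of levels per kb was not shared. Vehicle replicate 1 had Cxcl1 first, followed by Cxcl2 and Pf4, with Pf4 at 0.191 times Cxcl1 and 0.233 times Cxcl2. Vehicle replicate 2 had Pf4 at 1.19 times Cxcl2, on 3 and 8 counts, and vehicle replicate 3 had Cxcl16 and Cxcl12 first. The group means were 199 ± 345 CPM per kb for Cxcl1, 173 ± 275 for Cxcl2 and 48.7 ± 57.5 for Pf4 (SD, n = 3), which did not differ beyond their spread.

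To see which ligand counts stood above stray reads, they were set against 1471 olfactory and vomeronasal receptor genes, taken here as a set to gauge stray reads. The 95th percentile of these receptor genes was 6.63 to 9.52 counts per kb over the 6 libraries. Pf4, Cxcl1 and Cxcl2 exceeded it in all 3 treated libraries and in vehicle replicate 1, which also had Cxcl16 above it. In vehicle replicates 2 and 3, 0 of the 9 ligands exceeded it, so their ligand levels could not be told from stray reads at this depth. Cxcl12 exceeded it in KCL-HO-1i replicate 3 alone, and Ppbp, Cxcl9, Cxcl10 and Cxcl14 in no library.

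A contrast of Pf4 with the other ligands within a library does not depend on how libraries are scaled, but it does depend on stray reads. In vehicle replicates 2 and 3 no ligand stood above them, so the shares there, and vehicle means that include them, may reflect stray reads. Pf4 took 3.51% of the 342 ligand counts of vehicle replicate 1 (95% Wilson interval 2.02 to 6.03%), 11.1% of 27 in replicate 2 (3.85 to 28.1%) and 2.13% of 47 in replicate 3 (0.377 to 11.1%). In KCL-HO-1i replicates 1, 2 and 3 it took 30.3% of 597 (26.8 to 34.1%), 38.9% of 1824 (36.7 to 41.2%) and 33.8% of 1882 (31.7 to 36.0%). The share of Pf4 was higher in every treated library, although the interval of vehicle replicate 2 reached into that of KCL-HO-1i replicate 1. The mean share was 5.58 ± 4.84% with vehicle and 34.3 ± 4.33% with KCL-HO-1i (SD, n = 3).

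On the log2 scale with 0.5 added to both counts, Pf4 against the sum of the other 8 ligands was -4.72, -2.81 and -4.95 with vehicle against -1.20, -0.65 and -0.97 with KCL-HO-1i. The group means differed by 3.22, more than the SD of 1.18 with vehicle against 0.28 with KCL-HO-1i, with the same limit for vehicle replicates 2 and 3. Against Cxcl2 alone, there were 0.0736, 0.375 and 0.333 counts of Pf4 per count of Cxcl2 with vehicle against 0.812, 1.26 and 1.49 with KCL-HO-1i. The treated libraries were above the vehicle libraries in this ratio too, with vehicle replicate 1 the lowest. Cxcl1 per Cxcl2 was 0.626, 0 and 0 in the vehicle libraries against 0.798, 0.90 and 1.63 in the treated ones. It too was higher in every treated library, with vehicle replicate 1 the nearest to them. In vehicle replicates 2 and 3, Pf4 had 3 and 1 counts, Cxcl1 0 and 0, and Cxcl2 8 and 3. Both ratios thus rest on few counts there. Vehicle replicate 1 had a Cxcl1 share of 29.8%, equal to the 29.8% of KCL-HO-1i replicate 1, but a Pf4 share of 3.51% against 30.3%.

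**Figure D3:**
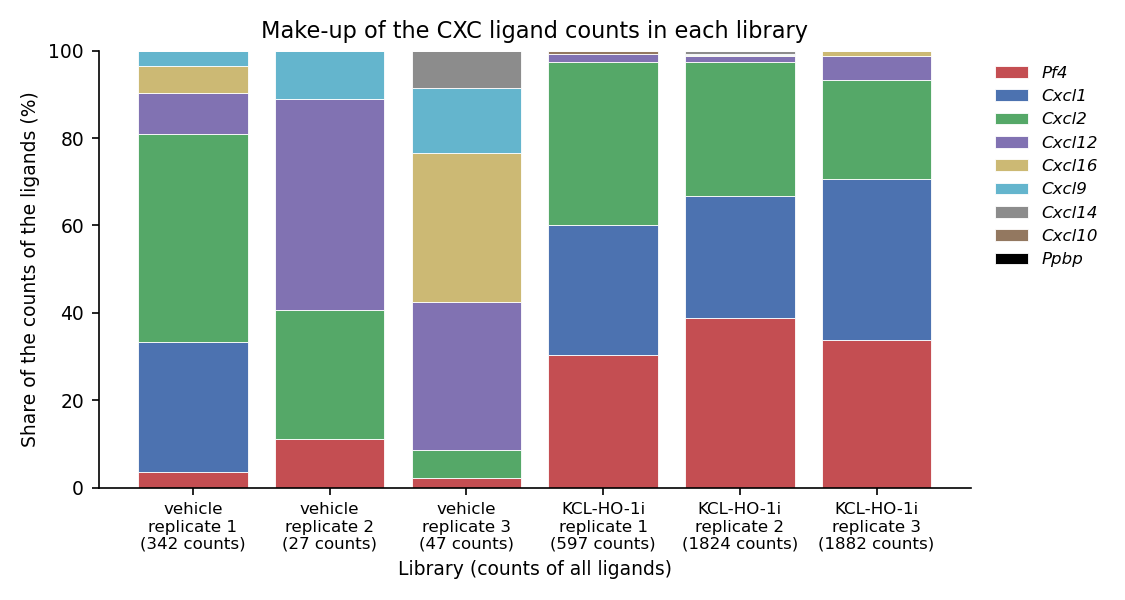
Share of each ligand in the summed counts of the CXC ligands (y axis, %) in each library (x axis, with the number of ligand counts). Pf4 (red, bottom) takes 2.13% to 11.1% of the ligand counts in the vehicle libraries, which hold 27 to 342 of them, and 30.3% to 38.9% with KCL-HO-1i, in libraries which hold 597 to 1882.

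Macrophage genes took a larger part of the counts in the libraries with high ligand counts. The 15 general macrophage genes (such as Lyz2, C1qc and Cd14) took 0.172%, 0.0246% and 0.0370% of the counts with vehicle against 0.504%, 0.796% and 0.423% with KCL-HO-1i. Of the 10 that were tested, 9 had a positive log2 fold change and 0 were called by edgeR. The 14 resident perivascular TAM genes (such as Ccl8, Selenop and F13a1) took 0.0399% to 0.413% with vehicle and 0.929% to 2.59% with KCL-HO-1i, and all 12 of those tested had a positive log2 fold change, with 0 called. The part of these shares in the higher ligand counts was not tested.

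Per 1000 counts of the general macrophage genes, Pf4 had 33.7, 56.6 and 8 with vehicle against 173, 279 and 281 with KCL-HO-1i. The groups did not overlap, and the means were 32.8 ± 24.3 and 244 ± 61.7 (SD, n = 3). On this scale 0.537% of all genes tested were higher with no overlap, and Pf4 was the 1 ligand among them. Pf4 was picked on its values in this contrast, so nothing is read from that share. Cxcl1 had 287, 0 and 0 with vehicle against 170.0, 199 and 306 with KCL-HO-1i, and Cxcl2 458, 151 and 24.0 against 213, 221 and 188. Both overlapped between the groups because vehicle replicate 1 was high, and the means of Cxcl2 were 211 ± 223 and 207 ± 17.1. The vehicle values rest on list totals of 356, 53 and 125 counts, and those of vehicle replicates 2 and 3 on at most 8 counts of a ligand. The totals of 53 and 125 are spread over 15 genes. In those libraries the olfactory and vomeronasal receptor genes had median counts of 5 and 11 each. Whether these macrophage totals exceed stray reads was not tested, so the scale is unsure there.

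Scaled in edgeR to the general macrophage genes, which moved the median of all genes from -0.52 to -4.47, the log2 fold change was 2.96 for Pf4, 1.16 for Cxcl1, -0.043 for Cxcl2, -2.82 for Cxcl12 and -3.92 for Cxcl16. Cxcl16 was then called lower, together with 72.1% of all genes either way. Relative to the resident genes, Pf4 had 14.1, 34.9 and 4.69 per 1000 with vehicle against 58.4, 85.8 and 128 with KCL-HO-1i, again with no overlap.

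**Figure D4:**
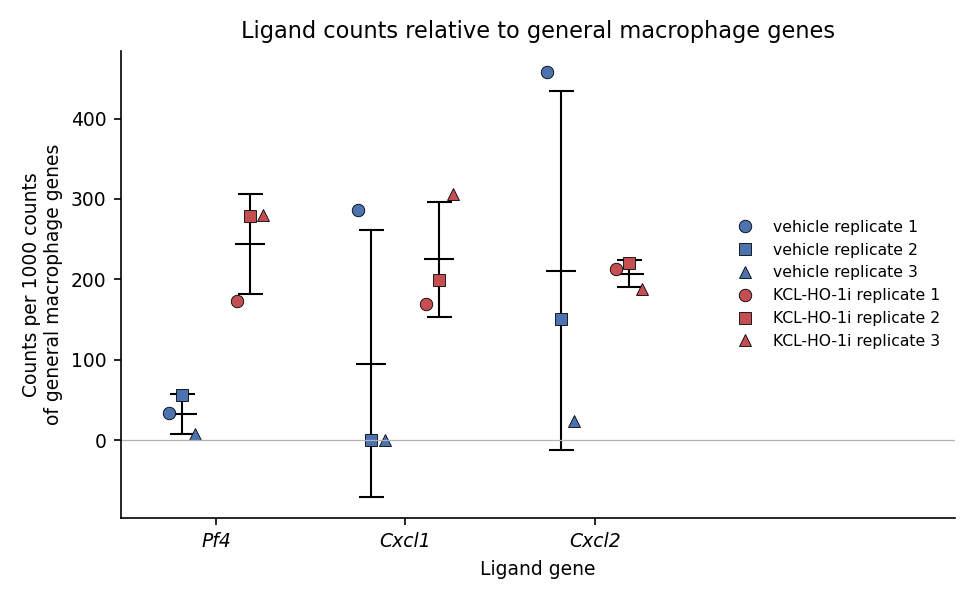
Counts of Pf4, Cxcl1 and Cxcl2 per 1000 counts of 15 general macrophage genes (y axis) in each library, with the mean and SD of each group as black bars (n = 3). Pf4 lies at 8 to 56.6 with vehicle and at 173 to 281 with KCL-HO-1i, whereas vehicle replicate 1 is above 2 of the treated libraries for Cxcl1 and above all of them for Cxcl2.

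Since Pf4 is a platelet protein, platelet genes were read beside it. The 12 platelet genes code for surface receptors and granule or cytoskeletal proteins. They took 0.0320% to 0.0384% of the counts with vehicle and 0.00433% to 0.0272% with KCL-HO-1i, a lower summed share where Pf4 was higher. The median count of the olfactory and vomeronasal receptor genes was also lower with KCL-HO-1i, at 0, 4 and 1 against 6, 5 and 11. The part of stray reads in the lower platelet share was not tested. Treml1 and Clec1b were at 0 in every library, and Gp9 had 1, 12 and 5 counts with vehicle against 0, 2 and 0 with KCL-HO-1i. The platelet genes with the most counts overlapped between the groups. Gp6, the collagen receptor, had 33, 5 and 36 counts against 0, 27 and 31. Gp5 and Gp1ba, parts of the von Willebrand factor receptor, had 9, 24 and 16 against 0, 12 and 35, and 10, 2 and 31 against 0, 14 and 16. Itga2b, the integrin chain that defines the lineage, had 3 counts in vehicle replicate 3 and in KCL-HO-1i replicate 2 and 0 elsewhere. Of the 12 genes 3 were tested, 0 of them had a positive log2 fold change and 0 were called. Ppbp, which platelets carry along with Pf4, was at 0.

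Marker lists of other cell types that make these ligands took small shares of the counts. In vehicle replicate 2 the general macrophage list held 53 counts, the platelet list 69, the fibroblast and mural list 61 and the endothelial list 52. In vehicle replicate 3 they held 125, 130, 114 and 79. Epithelial, neutrophil and lymphocyte lists held fewer. The lists thus do not show macrophage RNA to prevail in these libraries, and the part of stray reads was not tested. The fibroblast and mural list, whose cells make Cxcl12, took 0.0283% to 0.0344% with vehicle and 0.00722% to 0.0211% with KCL-HO-1i, the upper end in replicate 3, where Cxcl12 was highest. Endothelial genes took 0.0198% to 0.0241% against 0.00318% to 0.0144%, and epithelial genes 0.0125% to 0.0169% against 0.00990% to 0.0505%. Neutrophil genes took 0.0103% to 0.0140% against 0.00241% to 0.0110%, and lymphocyte genes 0.0144% to 0.0194% against 0.00280% to 0.0164%. None of these 5 lists was higher throughout in the libraries with high Pf4, Cxcl1 and Cxcl2. NF-kB target genes (such as Nfkbia, Ier3 and Nfkbiz) were, at 0.0237% to 0.0682% with vehicle and 0.126% to 0.212% with KCL-HO-1i, and 5 of the 6 tested had a positive log2 fold change, with 0 called. Vehicle replicate 1, with the most Cxcl1 and Cxcl2 of its group, also had the highest NF-kB target share of its group, and the part of these genes in the ligand levels was not tested.

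**Figure D5:**
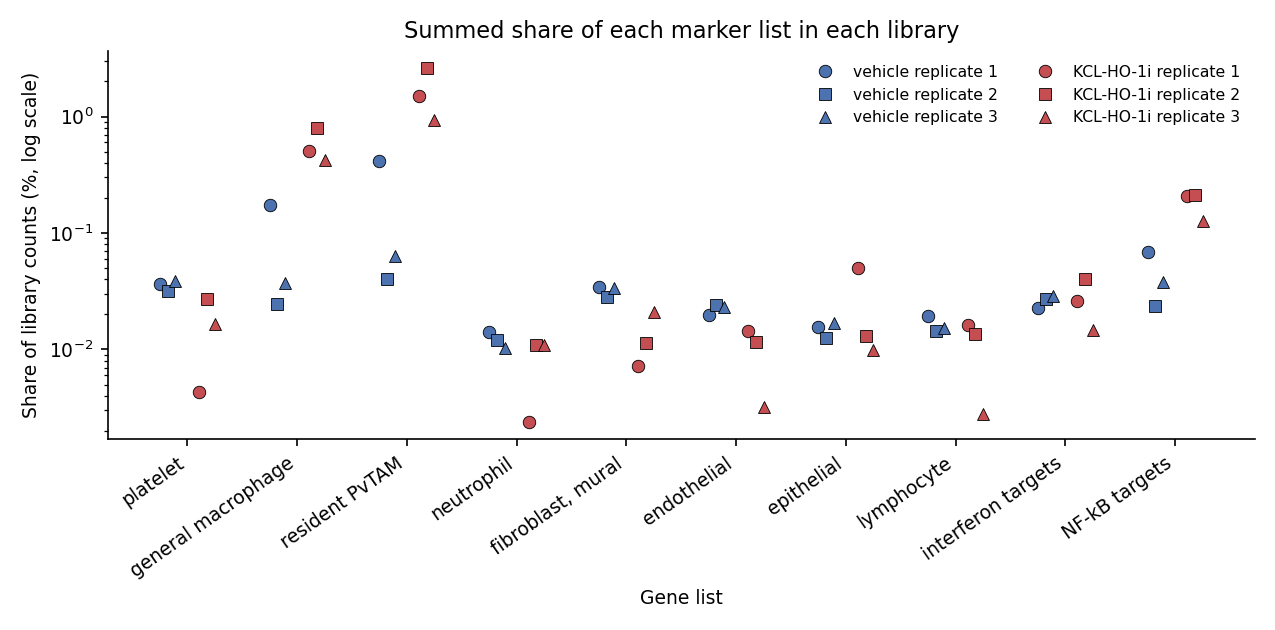
Summed share of library counts (y axis, %, log scale) taken by each marker or target list (x axis) in each vehicle (blue) and KCL-HO-1i (red) library. General macrophage, resident perivascular TAM (PvTAM) and NF-kB target genes are higher in all KCL-HO-1i libraries, and the platelet, fibroblast and mural, and endothelial lists are lower. No level of stray reads was subtracted.

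Among the receptors of these ligands, 4 of 8 were tested, with 1 higher, 3 lower and 0 called by edgeR. Cxcr2, which binds Cxcl1 and Cxcl2, was counted 25, 6 and 17 times with vehicle against 34, 16 and 0 times with KCL-HO-1i. Its log2 fold change was -0.054 (SE 1.39, adjusted p = 0.997 by edgeR's test). Cxcr3, bound by Cxcl9 and Cxcl10, had a value of 1.06 (SE 1.57, adjusted p = 0.933 from edgeR). Cxcr5, the receptor of Cxcl13, stood at -1.07 and Ackr3, the scavenger of Cxcl12, at -1.05, and their groups overlapped. Cxcr6, the receptor of Cxcl16, had 17, 18 and 8 counts against 0, 1 and 0, and Cxcr1 had 5, 6 and 15 against 0, 1 and 0. These 2 receptors were lower in every treated mouse. Of all genes tested, 24% had no overlap in either direction, and 7.88% were higher with KCL-HO-1i with no overlap. The 2 receptors did not pass the filter and were not tested, so they lie outside these shares and nothing is read from this. Cxcr4, the receptor of Cxcl12, had 9, 5 and 3 counts against 0, 3 and 16, and Ackr1, which binds many chemokines on venules, had 1, 15 and 1 against 0, 3 and 0.

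Of the 8 genes for proteins that bind or process the ligands, 5 were tested and 0 were called by edgeR, beside 0% of all genes. All 5 had a positive log2 fold change, beside 32.6% of all genes tested. Sdc4, a heparan sulfate proteoglycan of the cell surface, was counted 4, 1 and 11 times with vehicle against 65, 113 and 102 with KCL-HO-1i. Its groups did not overlap, beside 7.88% of all genes tested that were higher with no overlap (24% in either direction). The log2 fold change of Sdc4 was 4.04 (SE 0.93, adjusted p = 0.249 by edgeR's test). DESeq2 called it without a filter (0.845% of 19518 genes) and on the filtered genes (3.25% of genes), as did limma voom (4.12% of genes). Srgn, the serglycin proteoglycan that holds Pf4 in granules, had 25, 0 and 7 counts against 68, 146 and 124. Its log2 fold change was 3.04 (SE 1.21, adjusted p = 0.515 from edgeR), and limma voom called it (4.12% of genes). Neither gene was called by edgeR with any mouse left out. Genes with few vehicle counts can pass the filter through the treated libraries alone, so nothing is read from these shares. Cd44, Sdc1 and Adam10, which sheds Cxcl16, had log2 fold changes of 0.82, 0.74 and 0.59, each smaller than its SE of 0.85, 1.18 and 1.02. Bsg, a surface protein, was untested at 3, 8 and 8 counts against 24, 26 and 12. The peptidase Dpp4, which trims Cxcl10 and Cxcl12, had 6, 0 and 15 counts against 0, 0 and 11, and Adam17 had 2, 0 and 0 against 0, 5 and 12. Of the 6 ligands outside the set, 0 passed the filter, with at most 20 counts in a library, reached by Cxcl11 in vehicle replicate 3. Cxcl13 had at most 11 counts, in that same library.

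The 5 genes whose log2 CPM followed that of Pf4 most closely over the 6 libraries were B2m, Hsp90b1, Prdx1, Ndufa4 and Snx2, with root mean square differences of 0.69, 0.69, 0.80, 0.84 and 0.86 after each gene was centered on its mean. B2m, the light chain of MHC class I, had 14, 0 and 0 counts against 159, 232 and 264 in the treated mice. Prdx1, a peroxiredoxin, had 62, 12 and 10 against 470, 708 and 801. Like Pf4, these genes were highest among the vehicle libraries in replicate 1. They were chosen for following Pf4 over these same libraries, so nothing is read from this. Among the ligands, Cxcl1 came at rank 78 of 7262 genes and Cxcl2 at rank 79, with differences of 1.37 and 1.38, and Cxcl12 and Cxcl16 at ranks 1057 and 3013.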

How the data were processed

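RNAseq of sorted LYVE-1+CD206+ TAMs from 6 mice was used. Per the labels and the study's methods, read quality was assessed by the authors in FastQC 0.11.9, and they aligned reads with STAR 2.7.9a to mm10, quantified transcripts with Salmon 1.9.0 and summarized them to genes with tximport, from a directional library kit. The annotation is not given in the sources used here. The authors deposited estimated counts per gene, named TPM counts in the methods, but their totals differ between libraries (206728 to 535224), which TPM do not, and up to 19.3% of values were not whole.

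Estimated counts were rounded. Low genes were removed by filterByExpr (count 10, total 15), and edgeR 4.0.16 (R 4.3.3) gave TMM factors and quasi-likelihood tests with Benjamini-Hochberg adjustment and no covariates. Calls needed an adjusted p under 0.05 and an absolute log2 fold change above 0.6. SE was the log2 fold change divided by the root of F. DESeq2 1.42.0 and limma 3.58.1 (voom) were alternatives. The script was checked on simulated counts.

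The members, gene lists and tests were chosen with earlier results of these data known. Genes named are the ligands, listed CXC pathway genes that passed the filter or had 10 counts in any library, marker genes with the most counts or that define a type, and the 5 genes most like Pf4; Cxcl5 was added after its values were seen, as were the platelet and sorting markers given with counts. Positions and lengths are from GENCODE M21. Protein sequences were not used here. Replicate libraries differed by more than sampling noise (chi-square per degree of freedom 6.64 to 37.3).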

Additional observations from a re-analysis of the deposited data

How the results depend on the processing

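Over the alternatives run, 0 ligands were called by edgeR with RLE, library totals, no fold change threshold, mitochondrial genes removed, counts thinned to the smallest library (4 ligands tested), or 10 counts required in every library (Cxcl12 alone tested, 67 genes called in all). DESeq2 called 1 ligand with no filter and 1 on the filtered genes (165 and 236 genes in all), and 1 pathway gene, Sdc4, in each. limma voom called 3 ligands, 2 pathway genes and 299 genes in all, and edgeR with no filter called 1 ligand and 82 genes. Scaling to general macrophage genes called 1 ligand (Cxcl16, lower), 2 pathway genes (Ackr3 and Cxcr5, lower) and 5240 genes, with all but 9 lower. It turned Cxcl2 to -0.043, Cxcl12 to -2.82 and the median of the tested ligands to -0.043, by its construction, since it lowered the median of all genes from -0.52 to -4.47.

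With each mouse left out in turn, 0 to 3 ligands, 0 to 0 pathway genes and 0 to 74 genes in all were called, and all calls came without vehicle replicate 1. The log2 fold change was 5.77 to 8.0 for Pf4, 2.85 to 11.9 for Cxcl1 (the upper value fitted against libraries at 0, and no bound), 1.94 to 6.24 for Cxcl2, -0.38 to 1.78 for Cxcl12 and -2.18 to 0.62 for Cxcl16. Cxcl12 turned to -0.38 without KCL-HO-1i replicate 3, and Cxcl16 to 0.62 without vehicle replicate 1 and to 0.15 without KCL-HO-1i replicate 1; the cause was not tested. Pf4 against the other 8 ligands differed between the groups by 2.83 to 3.9.

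Both groups use the same replicate numbers, which belong to different mice, and deviations of same-numbered libraries did not go together (r = -0.0026, 0.055 and -0.033 across genes, which are not independent). With the replicate number as a block, 0 ligands, 0 pathway genes and 0 genes in all were called, with log2 fold changes of 6.70 for Pf4, 7.89 for Cxcl1 and 4.76 for Cxcl2.

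Few counts limit the vehicle values: vehicle replicates 2 and 3 held 27 and 47 ligand counts, and in them Pf4 had 3 and 1. Vehicle replicate 3 had 338255 counts in all, and KCL-HO-1i replicate 1, with 597 ligand counts, had 207812. The part of library totals in the low ligand counts was not tested.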
